A study of Homo sapiens with 44 samples.

Results

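The metallothionein genes MT1A, MT1E, MT1F, MT1G, MT1H, MT1M, MT1X, MT2A and MT3 encode small cysteine-rich proteins that bind zinc and copper. These 9 genes were taken by symbol from the 60499 gene identifiers of the deposited tables, through the GENCODE 29 annotation. They were chosen by their read counts across all 12 groups of these libraries, which were already known, so their levels and differences are given as descriptions without p-values. In the fit of all 12 groups, counts of members past the call rule explained below stand beside the share of all genes past it. Nothing is read from such counts, since the same data chose the members. The RNA came from the H1 human embryonic stem cell line, obtained from WiCell, during directed differentiation towards cardiac cells, and 44 libraries of total RNA fall into 12 groups. Pluripotent cells were kept on the laminin LN-521 (n = 3 wells), and no medium is given for them in the labels. All later groups grew on LN-521 together with LN-221. Day 0 cells were in Nutristem medium (n = 3). Cells of day 1 and day 3 were in RPMI 1640 with insulin-free B27 and CHIR99021, which blocks GSK3 and so turns on Wnt signalling (n = 3 each). Day 5 cells were in the same base medium with IWP2, an inhibitor of Wnt production (n = 5), and cells of day 7 and day 9 had neither inhibitor (n = 5 each). From day 11 the medium held CTS B-27 supplement, with 5 wells at day 11 and 3 wells each at days 14, 20, 30 and 90. Wells were labelled as biological replicates of 1 cell line, and the spread between them is the spread between wells.

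Metallothioneins buffer the pool of free zinc and copper in a cell, and the metal is held by thiolate clusters of the cysteines. Their transcription is switched on by MTF1, a zinc-sensing transcription factor that binds metal response elements in their promoters, and glucocorticoids and oxidative stress also induce several of them. MT1 and MT2 genes are transcribed in most tissues including liver and heart, while MT3 is best known from the brain, where its protein was described as a growth inhibitory factor.

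All 9 genes lie within 95123 bases of chromosome 16 (GRCh38), from MT3 at the start of chr16:56589074-56684196 to MT1X at its end. MT1G is on the minus strand and the other 8 are on the plus strand. Each coding sequence spans 3 exons. The 8 MT1 and MT2 coding sequences have 61 codons each, of which 20 encode cysteine, and any pair of them shares 88.7% to 95.2% of coding bases. MT3 has 68 codons, also with 20 for cysteine, and shares 73.4% to 76.3% with the others. Coding sequences from GENCODE 29 are shown for MT2A and MT1X, whose levels separated at day 0. Cysteine codons are in capitals.
MT2A: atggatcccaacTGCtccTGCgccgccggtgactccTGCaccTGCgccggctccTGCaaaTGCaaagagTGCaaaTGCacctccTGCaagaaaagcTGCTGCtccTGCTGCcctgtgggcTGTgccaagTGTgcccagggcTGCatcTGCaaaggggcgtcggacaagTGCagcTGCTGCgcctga
MT1X: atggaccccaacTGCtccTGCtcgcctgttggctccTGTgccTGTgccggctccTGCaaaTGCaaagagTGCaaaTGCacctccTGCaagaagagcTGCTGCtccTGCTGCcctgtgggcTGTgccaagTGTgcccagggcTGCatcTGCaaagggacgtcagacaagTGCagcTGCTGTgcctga
Close copies can share reads, and the deposited counts are estimates that divide such reads between genes. Runs of 100 bases were compared between the members' transcripts and all other genes' transcripts. None was shared with another gene for 7 of the 9 members. MT1H shared 10 of 298 such runs with MT1HL1, which had 0 counts in every library. MT1X shared 67 of 351 with AC026461.1, an overlapping transcript on the same strand with at most 1.23 counts in a library.

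Promoters of 3 members, MT2A, MT1H and MT1X, were in the RefSeq promoter table for GRCh38.p14. The 250 bases before the start site were searched on both strands for TGCACNC and TGCGCNC, the core letters of the metal response element. MT1H had 8 matches, MT2A had 7 and MT1X had 4. Of 35116 promoters of that length, 24.8% held at least 1 match. At least 8 matches were found in 0.0171% of them, at least 7 in 0.0313% and at least 4 in 0.370%. The MT1H promoter, chr16:56669564-56669813 on the plus strand, is shown because it had the most matches. Matches on either strand are in capitals, and none overlapped another.
MT1H promoter: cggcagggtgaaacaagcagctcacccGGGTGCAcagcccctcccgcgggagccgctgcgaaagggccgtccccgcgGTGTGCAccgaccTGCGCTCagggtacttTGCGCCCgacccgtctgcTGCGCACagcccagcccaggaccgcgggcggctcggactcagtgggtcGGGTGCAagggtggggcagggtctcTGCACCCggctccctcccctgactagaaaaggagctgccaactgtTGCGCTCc
A match of letters is a description and not evidence of binding.

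Libraries held 6937136 to 33498022 counts, with a median of 26010763. Values between samples are given as CPM, the share of a library's counts scaled by edgeR's TMM factors, where 3 counts correspond to 0.0918 to 0.410 CPM depending on the library. Values between genes are given in TPM, which accounts for transcript length. The summed CPM of 5 pluripotency markers lay between 4988 and 5361 in pluripotent cells and between 6.66 and 16.3 at day 90, and that of 5 cardiomyocyte markers went from between 31.1 and 59.6 to between 12440 and 16897 over the same groups. Hepatic and endoderm markers were also present, at up to 10221 CPM in 1 well of day 11. In RNA from whole wells, fewer cells with a transcript and less of it per cell cannot be told apart.

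The 9 genes together had 318, 288 and 299 CPM in the 3 pluripotent wells, which was a mean of 302 ± 15.2 (SD, n = 3). The sum was 186 ± 7.75 CPM at day 0 and 47.7 ± 0.464 at day 1. It was 1.93 ± 0.0330 CPM at day 3 (n = 3 each). The ranges of these 4 groups did not overlap, and the whole family went from 7924 to 9416 counts per pluripotent library to 49 to 52 counts per day 3 library. On the log2 scale the day 3 mean lay at -7.29 against pluripotent cells. Replicate 1 of these 4 groups was sequenced in the same lane and gave 318, 178, 48.2 and 1.95 CPM. From day 5 to day 11 the group means of the sum stayed between 2.66 and 6.29 CPM. Days 14 and 20 spread widely, from 3.63 to 61.8 and from 3.47 to 24.5 CPM. The sum was 7.02 ± 1.88 CPM at day 30 and 12.6 ± 0.411 at day 90 (n = 3 each).

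**Figure D1:**
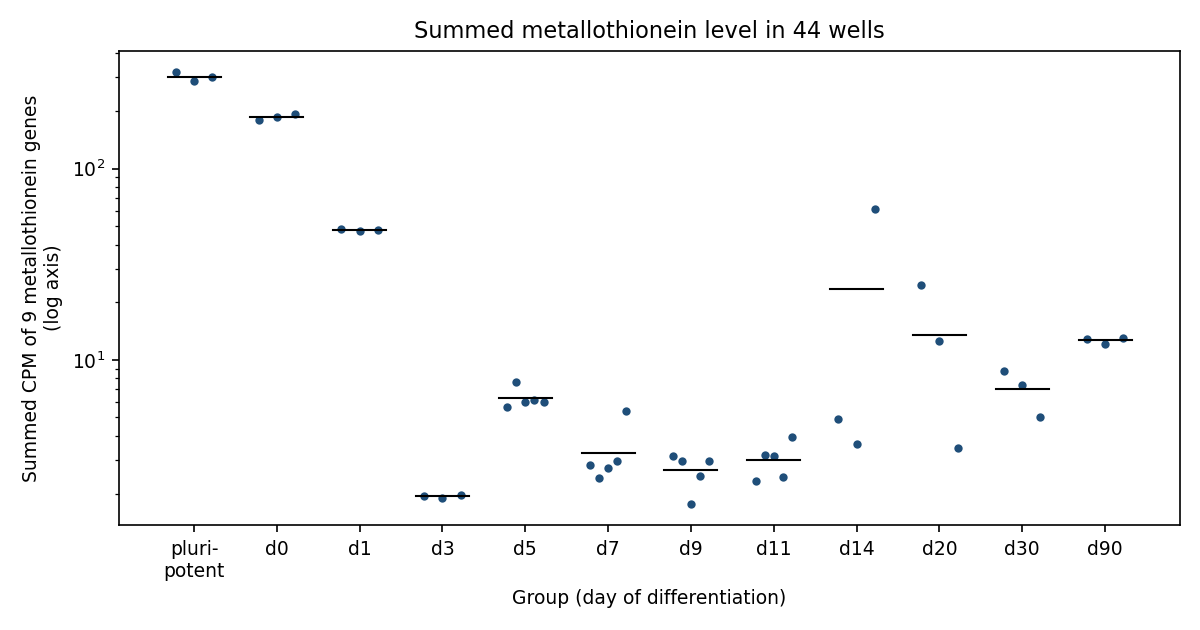
Summed CPM of the 9 metallothionein genes on a log axis, 1 point per well and a bar for the group mean, for pluripotent cells and days 0 to 90. The means go from 302 CPM in pluripotent cells to 1.93 CPM at day 3, and 1 well of day 14 stands at 61.8 CPM.

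In pluripotent cells, 6 members carried nearly all of the family's transcripts. MT1X was the most abundant by length-corrected level at 186 ± 20 TPM (SD, n = 3), followed by MT1G at 149 ± 49 TPM and MT1H at 143 ± 31 TPM. MT1E stood at 73.6 ± 14 TPM, MT2A at 37.5 ± 10 TPM and MT1F at 28.2 ± 6.8 TPM. MT1M had 1.88 ± 0.61 TPM and MT1A 0.657 ± 0.29 TPM. MT3 was at 0.270 ± 0.085 TPM, with 4 to 7 counts per library. MT1A never exceeded 10 counts in a library and was too low to be fitted, so the differences below are for 8 members.

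Between pluripotent cells and day 0, most members were lower and MT1X was not. MT1E had 48.1, 45.7 and 51.0 CPM in pluripotent wells and 14.2, 16.7 and 17.4 CPM in day 0 wells. MT2A had 33.0, 27.8 and 26.6 CPM and then 13.0, 13.1 and 13.4 CPM. For both genes all day 0 wells lay below all pluripotent wells. MT1X, in contrast, had 87.2, 81.7 and 98.0 CPM in pluripotent wells and 81.2, 88.2 and 87.0 CPM at day 0, with overlapping ranges. The edgeR log2 differences were -1.58 ± 0.63 (SE) for MT1E, -1.59 ± 1.0 for MT1M, -1.15 ± 0.60 for MT2A and -1.08 ± 0.49 for MT1H. They were -0.94 ± 0.69 for MT1G, -0.56 ± 0.60 for MT1F and -0.06 ± 0.54 for MT1X. The mean of MT3 was not lower either, at 0.174 CPM in pluripotent cells and 0.214 CPM at day 0, from few counts. Wells of the 2 groups did not overlap for 6 of 8 members, against 47.8% of genes. A gene was counted as called where the Benjamini-Hochberg adjusted p was under 0.05 and the log2 difference was at least 1 in size. By that rule 0 of 8 members were called lower or higher, against 2.91% of 22955 genes. The spread in that fit is shared by all 12 groups, including the wide days 14 and 20. Its part in the absence of calls was not tested. In a fit of these 2 groups alone MT1E, MT1H, MT1M and MT2A were called, against 9.07% of genes.

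The unequal course of the members showed in ratios within a library, which do not depend on library scaling. MT1E had 0.520 to 0.559 counts for each MT1X count in pluripotent wells and 0.175 to 0.200 in day 0 wells. MT1H had 0.522 to 0.657 and then 0.282 to 0.313, and MT1G 0.496 to 0.803 and then 0.310 to 0.372. MT1X made up 30.4% ± 3.3 of the family's TPM in pluripotent wells and 46.5% ± 1.4 at day 0 (SD, n = 3).

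Day 1 followed the change from Nutristem to RPMI 1640 without insulin and the addition of CHIR99021, which happened together, so that medium and inhibitor cannot be told apart. MT1X was then at 16.6, 10.7 and 16.7 CPM, with all wells far below day 0. MT1G had 29.5, 27.3 and 32.3 CPM at day 0 and 6.69, 5.67 and 5.35 CPM at day 1. MT1H had 24.0, 24.8 and 27.2 CPM and then 5.08, 7.64 and 4.95 CPM. These 3 genes were called lower, by log2 differences of -2.54 ± 0.57 for MT1X, -2.33 ± 0.72 for MT1G and -2.10 ± 0.51 for MT1H. The MT1G call was lost with DESeq2, and without day 0 replicate 3 or any 1 well of day 1. Among all genes 9.66% were called lower and 13.5% in either direction. MT1E, MT1F and MT2A lay at -1.37 ± 0.63, -1.24 ± 0.61 and -0.87 ± 0.60 without a call, although no day 1 well of these genes reached the range of day 0. In a fit of the 2 groups alone 5 members were called, with MT1E and MT1F added, against 21.3% of genes. MT1M was the member whose mean was not lower, with 0.771, 0.333 and 1.00 CPM at day 0 and 0.943, 1.61 and 1.03 CPM at day 1, from 10 to 50 counts.

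By day 3 every fitted member except MT3 was called lower. MT2A had 5.66, 10.1 and 5.82 CPM at day 1 and 0.0397, 0.112 and 0.0754 CPM at day 3, which is 168 to 313 counts against 1 to 3. Since 3 counts is the least that was taken as measurable, MT2A was at least 60.2-fold lower. MT1H went from 151 to 238 counts to 0 to 3, which is at least 49.5-fold lower. MT1E had 6.73, 5.36 and 6.63 CPM at day 1 and 0.199, 0.0744 and 0.0754 CPM at day 3, with a log2 difference of -5.70 ± 0.89. MT1G, MT1F and MT1M lay at -5.48 ± 0.98, -4.79 ± 0.77 and -4.40 ± 1.25. The MT1M difference ranged from -7.91 to -3.86 with 1 well left out, as the gene held 0% to 8.16% of the family's few counts at day 3. MT1X kept the most, at 1.03, 1.15 and 1.24 CPM or 26 to 33 counts, with a difference of -3.67 ± 0.64. Thus 7 of 8 fitted members were called lower, where 6.80% of all genes were called lower and 17.8% in either direction. Their median log2 difference, MT3 included, was -5.13, beside 0.07 over all genes tested. MT3 was at 1 to 4 counts in both groups.

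**Figure D2:**
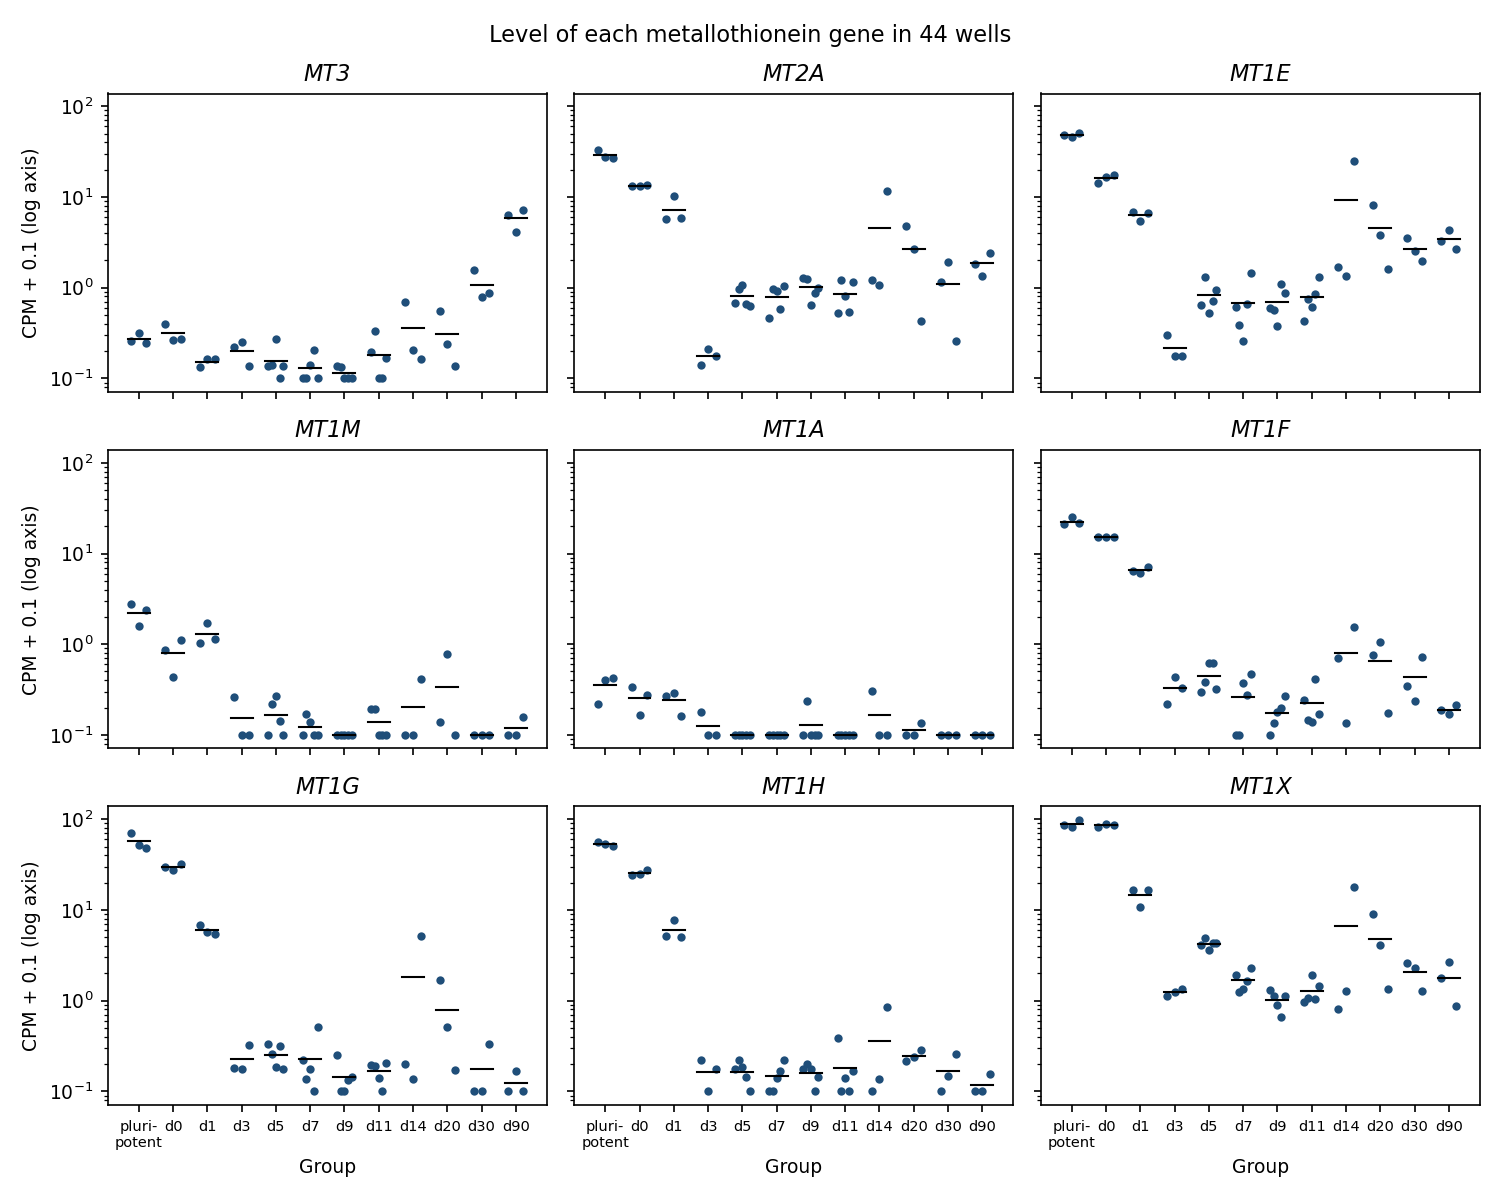
Level of each metallothionein gene in CPM plus 0.1 on a log axis, 1 panel per gene, 1 point per well and a bar for the group mean. MT1X stays near 85.5 CPM at day 0 where MT1E is at 16.1 CPM, and MT3 is the member with its highest mean at day 90.

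Day 5, after CHIR99021 had been replaced by IWP2, brought a small return of 3 members. MT1X had 4.02, 4.83, 3.55, 4.17 and 4.27 CPM, above all 3 day 3 wells. MT2A was at 0.580, 0.878, 0.984, 0.565 and 0.520 CPM, from 13 to 23 counts. MT1E was at 0.542, 1.197, 0.428, 0.608 and 0.855 CPM. The log2 differences from day 3 were 3.12 ± 0.88 for MT2A, 2.61 ± 0.89 for MT1E and 1.86 ± 0.58 for MT1X, and these 3 were called higher, where 5.75% of all genes were called higher and 10.1% either way. Without day 3 replicate 1 or day 3 replicate 3, 0 members were called, and without day 3 replicate 2 only 1. With limma on log2(TPM + 1) all 3 calls were lost, at log2 differences of 0.64 for MT2A, 0.78 for MT1E and 0.82 for MT1X. MT1F, MT1G, MT1H and MT1M had at most 12 counts in a day 5 library, and their ranges overlapped those of day 3. At day 5 MT1X alone made up 64.0% ± 9.5 of the family's TPM (SD, n = 5).

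MT1X then went down again while MT2A and MT1E did not. At day 9 MT1X had a median of 1.02 CPM with a range of 0.553 to 1.21, below all day 5 wells, and a log2 difference of -2.17 ± 0.49. MT1F was at 0 to 4 counts at day 9 with a difference of -2.13 ± 0.75. Both were called lower, where 3.39% of genes were called lower and 10.2% either way. The MT1F call was lost without day 5 replicate 3 or 4, or without day 9 replicate 1, 2, 3 or 4. It was also lost with limma on log2(TPM + 1), at a difference of -0.28, and in a fit of the 2 groups alone MT1F was too low to be tested. MT2A was at 0.550 to 1.17 CPM and MT1E at 0.275 to 1.01 CPM, both overlapping day 5. MT2A therefore held 35.7% ± 2.7 of the family's TPM at day 9, against 10.5% ± 4.5 at day 5 (SD, n = 5 each). MT1M had 0 counts in all 5 day 9 wells, which allows up to 3 counts per library. Day 11 against day 9 spans the change to CTS B-27 supplement. No member was called there, against 1.63% of genes. The ranges overlapped for all 8 members fitted, but the share of all genes with overlapping ranges was not taken in this step, so nothing is read from that. The sum was 2.34 to 3.93 CPM at day 11 and 1.77 to 3.14 CPM at day 9.

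Wells within days 14 and 20 were far apart. Replicate 6 of day 14 had 61.8 CPM of summed metallothionein, and replicates 2 and 3 had 4.92 and 3.63 CPM. At day 20 replicate 1 had 24.5 CPM, replicate 2 had 12.6 CPM and replicate 3 had 3.47 CPM. In replicate 6 of day 14 MT1E was at 25.0 CPM, MT1X at 17.8 CPM, MT2A at 11.4 CPM and MT1G at 5.07 CPM, while the other day 14 wells had at most 1.61, 1.18 and 1.10 CPM of the first 3 and 1 count each of MT1G. MT1H was only at 0.749 CPM in that well, from 12 counts. The make-up therefore differed from that of pluripotent wells, with 0.0421 MT1H counts for each MT1X count. In replicate 1 of day 20 MT1X was at 8.82 CPM, MT1E at 8.13 CPM, MT2A at 4.72 CPM and MT1G at 1.61 CPM. These 2 wells had 14148880 and 27221714 counts, RNA integrity numbers of 8.2 each, and shared lane 1 with wells of other days, among them day 11 replicate 1 at 2.34 CPM. Their summed pluripotency markers were 169.9 and 34.0 CPM, where the other wells of their days had 112.5 to 116.3 and 49.4 to 97.7 CPM. Fibroblast and epicardial markers were at 1001 and 8688 CPM, below both other day 14 wells and above both other day 20 wells. Hepatic and endoderm markers were at 3676 and 2182 CPM. The summed level of 4 smooth muscle markers was the highest of its day in both wells. It was 1284 CPM in replicate 6 of day 14, with the other wells at 721.4 and 1061 CPM, and 2093 CPM in replicate 1 of day 20, with the others at 1138 and 1392 CPM. At day 30 the smooth muscle sums were 2443, 2636 and 958.1 CPM in replicates 1, 3 and 10. The mean metallothionein sum of these 3 wells was 7.02 CPM. Cardiomyocyte markers were at 10670 CPM in the day 14 well, between the others, and 9813 CPM in the day 20 well, the lowest. Endothelial markers were at 178.4 CPM, lowest of day 14, and 176.7 CPM, highest of day 20. Neural markers, at 8.24 and 17.4 CPM, lay between the other wells. The part of these differences between wells in the metallothionein levels was not tested. Without replicate 6 the day 14 sum lay at a log2 ratio of -6.14 to pluripotent cells, against -3.69 with it.

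MT3 followed another course. From pluripotent cells to day 20 its group means were at or below 0.258 CPM, with at most 12 counts in any library. At day 30 it had 1.47, 0.781 and 0.694 CPM, from 10 to 36 counts, above all wells of day 11. At day 90 it had 6.23, 3.96 and 7.06 CPM, from 57 to 139 counts, and each of these wells lay above all others of the series. Day 30 differed from day 11 by 3.60 ± 0.74 on the log2 scale, and day 90 from day 30 by 2.54 ± 0.73. MT1E was the only other member called between days 11 and 30, with 3.42, 1.87 and 2.45 CPM at day 30 and a difference of 1.89 ± 0.61. In that step 6.01% of genes were called higher and 11.5% either way. The MT1E call was lost without day 11 replicate 1 or 5, or without day 30 replicate 1 or 3. Between days 30 and 90 MT3 alone was called, and 2.65% of genes were called higher and 5.09% either way. This last call was lost without day 30 replicate 3 or day 90 replicates 2 or 5, and in a fit of the 2 groups alone, where 0.0117% of genes were called. It was also lost with a replicate block, at a log2 difference of 2.44. With limma on log2(TPM + 1), MT3 lay under the minimum mean of 1 TPM and was not tested in either step. A list of 5 neural markers summed to 9.12 to 29.4 CPM at day 30 and 3.13 to 6.72 CPM at day 90.

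At day 90 MT3 was the most abundant member. It held 48.5% ± 10 of the family's TPM and MT1E 23.9% ± 7.9, while MT1X held 14.4% ± 6.0 (SD, n = 3). MT1G and MT1H, together with MT1X the leading genes of pluripotent cells, held 0.415% ± 0.72 and 0.251% ± 0.44 at day 90, from 0 or 1 count per library. MT1E had 1.65 to 3.29 counts for each MT1X count. The fall from pluripotent cells to day 90 depends on the unit, since the log2 ratio of the sum was -4.58 in CPM and -6.19 in TPM. At day 5 it was -5.59 in CPM and -6.32 in TPM.

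**Figure D3:**
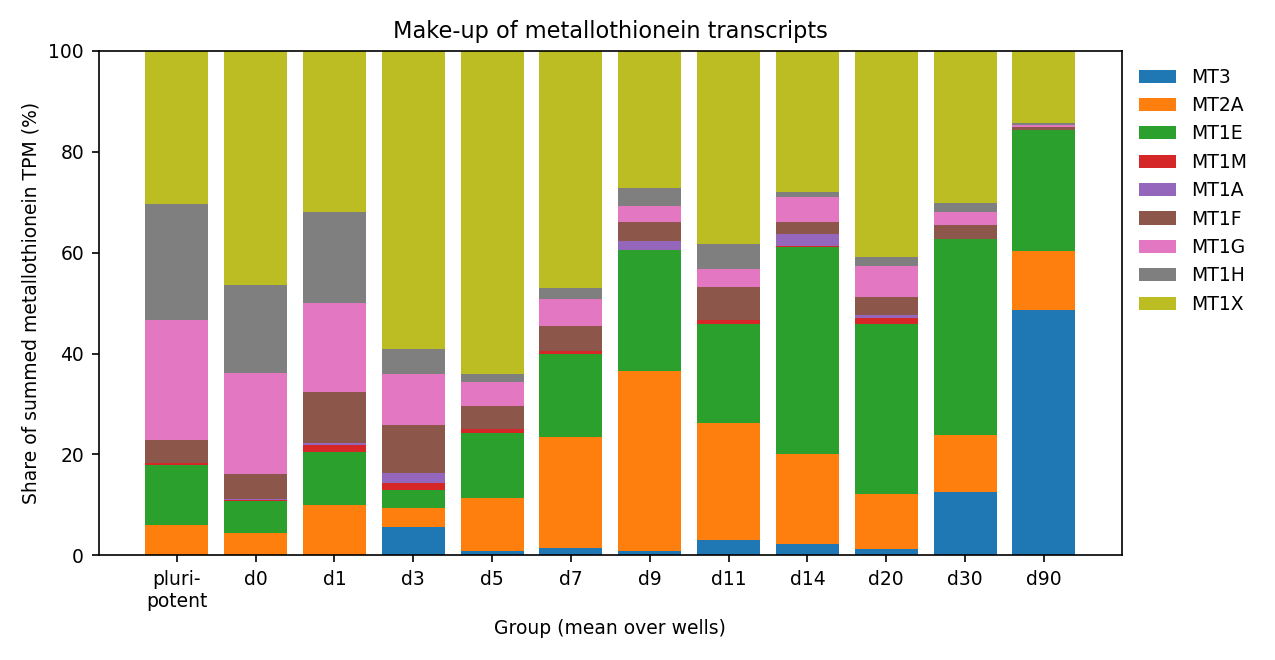
Mean share of each gene in the summed TPM of the 9 metallothionein genes, in percent, for each group. MT1X grows from 30.4% in pluripotent cells to 64.0% at day 5, and MT3 reaches 48.5% at day 90.

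Over the 12 group means of log2(CPM + 1), the correlation between members was between 0.86 and 0.995 for all pairs without MT3. MT3 correlated with the others at -0.23 to 0.084. Neighbouring groups share the time order and the libraries are the same for all genes, so these values describe the course and no more. By the same measure, the 5 protein-coding genes of 7632 eligible whose course was most like that of the summed members included C19orf33 (r = 0.971), RPL22L1 (0.951), DNAJB6 (0.943) and RELCH (0.938). DNAJB6, a co-chaperone, was at 290.3 ± 9.78 CPM in pluripotent cells and 94.5 ± 9.71 CPM at day 3. For MT1G, MT1H and MT1X, TENT5B and IDO1 were both among the 3 most alike. With log2(TPM + 1), IDO1 was among the 3 most alike for none of them, and TENT5B for MT1G and MT1X only. IDO1 encodes a tryptophan-degrading enzyme.

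Among genes next to the cluster, 2 were lower and BBS2 was higher at day 3 than at day 1 (edgeR adjusted p under 0.05). These differences were below the size taken for a call, and none of the genes was called lower in the steps between pluripotent cells and day 3. The genes examined were NUDT21, OGFOD1 and BBS2 on one side and NUP93, SLC12A3 and HERPUD1 on the other, 6 in all, and they were chosen after their values were seen. Their adjusted p do not account for that choice. HERPUD1 was called higher at day 1, with 8.20 ± 0.533 CPM at day 0 and 20.2 ± 6.18 CPM at day 1 (n = 3 each, edgeR adjusted p = 0.000959). OGFOD1 had 72.7 ± 3.63 CPM in pluripotent cells, 77.8 ± 6.14 CPM at day 1 and 43.99 ± 0.454 CPM at day 3 (SD, n = 3 each). Its log2 difference between days 1 and 3 was -0.82 ± 0.16, with an edgeR adjusted p of 8.01e-05. NUP93, a nuclear pore protein gene, had 200.3 ± 10.5, 182.2 ± 5.60 and 115.1 ± 12.3 CPM in the same groups, and a difference of -0.66 ± 0.20 in that step (edgeR adjusted p = 0.0123). BBS2 went the other way, from 23.1 ± 2.15 CPM at day 1 to 45.2 ± 4.41 CPM at day 3 (0.97 ± 0.15, edgeR adjusted p = 3.20e-06). At day 0 against pluripotent cells, BBS2 lay at 0.51 ± 0.15 and NUDT21 at -0.53 ± 0.13 (edgeR adjusted p = 0.0337 and 0.0149).

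Other genes of metal handling and of the stimuli that induce metallothioneins were taken as 6 lists, 53 genes in all and every one fitted. MTF1, the metal-sensing factor itself, was called in none of the 8 comparisons. Its group means ranged from 8.62 to 14.5 CPM over the 12 groups. MTF1 had 12.5 ± 0.699 CPM in pluripotent cells and 12.6 ± 0.880 CPM at day 3 (n = 3 each). Between days 11 and 30 its log2 difference was 0.67 ± 0.18 with an edgeR adjusted p of 0.00518, below the size taken for a call.

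SLC30A1, which exports zinc from the cell, is another known target of MTF1. It had 71.8, 73.7 and 63.8 CPM in pluripotent wells, 66.1, 58.8 and 60.6 CPM at day 0, and 33.3, 20.0 and 30.7 CPM at day 1. At day 3 it was at 9.77, 11.2 and 11.7 CPM, and at day 5 at 25.6, 20.7, 30.6, 25.9 and 27.8 CPM. Wells did not overlap between day 0 and day 1, day 1 and day 3, or day 3 and day 5. The log2 differences were -1.14 ± 0.53, -1.36 ± 0.54 and 1.26 ± 0.50, with edgeR adjusted p of 0.122, 0.0531 and 0.0754, and none was called. The shared spread of that fit included the wells in which SLC30A1 stood apart. Replicate 6 of day 14 had 243.3 CPM and the other 2 wells had 32.4 and 28.9 CPM, and at day 20 replicates 1, 2 and 3 had 228.4, 157.2 and 41.5 CPM. With replicate 6 of day 14 and replicate 1 of day 20 left out, a setting chosen after seeing the data, the same 3 steps had edgeR adjusted p of 0.0311, 0.00581 and 0.0100, and all 3 were called. In fits of the compared groups alone they were 0.000226, 0.000222 and 5.78e-05. With limma on log2(TPM + 1) none of the 3 was called, with log2 differences of -0.81, -0.84 and 0.61 and adjusted p of 0.464, 0.390 and 0.432. Leaving out 1 well of a step at a time gave edgeR adjusted p of 0.182 to 0.342 at day 1, 0.0440 to 0.132 at day 3 and 0.0787 to 0.205 at day 5, and the only call was at day 3, without day 1 replicate 2. That day 3 step was also called under RLE scaling, both other filters on low counts, the replicate block and DESeq2 (adjusted p of 0.0267 to 0.0475), and the day 5 step with DESeq2 (0.0311). At day 30 the wells ranked otherwise, since replicate 3 had 139.0 CPM of SLC30A1 but 7.36 CPM of summed metallothionein, between the 8.71 and 5.00 CPM of the other wells. SLC30A1 also kept 15.6% of its pluripotent level at day 3, where the metallothionein sum kept 0.640%.

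**Figure D4:**
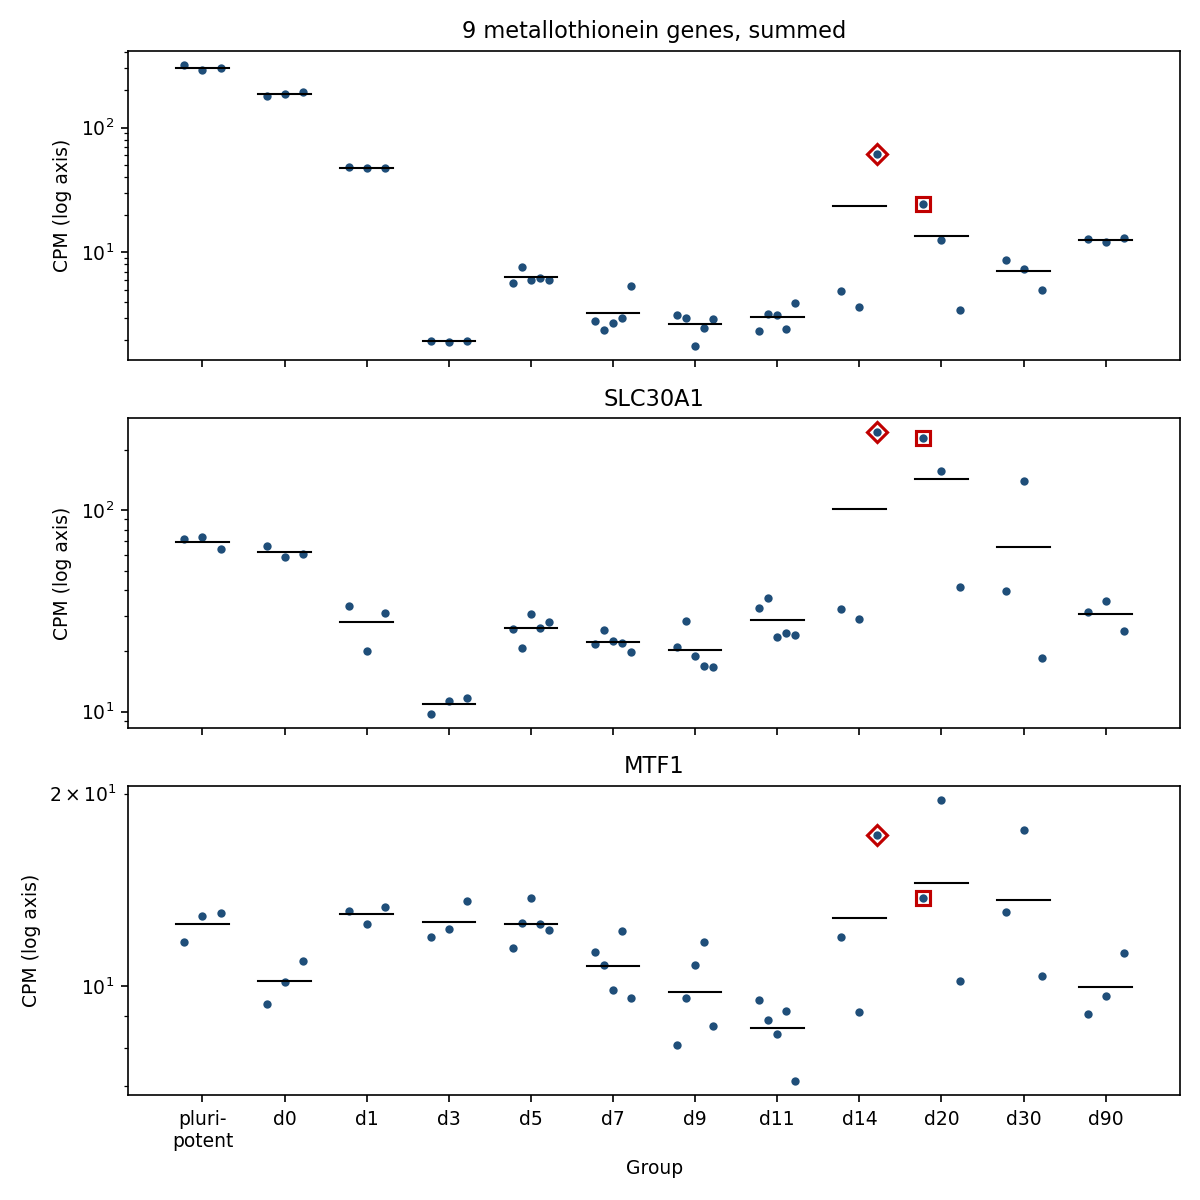
Summed metallothionein, SLC30A1 and MTF1 in CPM on log axes, 1 point per well and a bar for the group mean, with replicate 6 of day 14 marked by a red diamond and replicate 1 of day 20 by a red square. SLC30A1 is at 243.3 and 228.4 CPM in those 2 wells, and the MTF1 group means range from 8.62 to 14.5 CPM.

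Among the 10 zinc exporters of the SLC30 family and the 14 zinc importers of the SLC39 family, calls went in both directions. At day 1 SLC39A8, an importer of zinc and manganese, rose from 19.0 to 255 CPM with a log2 difference of 3.75 ± 0.30 (edgeR adjusted p = 1.15e-11). It then fell by 1.55 on the log2 scale to day 3 and by 1.45 to day 5. SLC30A4 rose by 2.53 ± 0.36 at day 1, and SLC30A10 and SLC30A3 fell by 3.46 ± 0.78 and 1.65 ± 0.34. Both falls were followed by calls higher, for SLC30A3 at day 3 and day 5 and for SLC30A10 at day 5. With 1 well left out, these differences lay at 1.74 to 2.45, 2.14 to 2.86 and 2.93 to 3.58. SLC30A3 was called lower again between days 5 and 9. SLC30A4 was called higher again at day 3, and SLC30A2 was called lower there. At day 3 SLC39A4, the main importer of dietary zinc in the gut, rose from 1.22 to 16.1 CPM (log2 difference 3.72 ± 0.51, adjusted p = 5.12e-07). SLC39A3 fell by 1.61 ± 0.24 in that step. At day 5 SLC39A5 rose from 0.507 to 25.9 CPM (5.66 ± 0.75, adjusted p = 5.86e-07), and fell by 3.69 ± 0.69 between days 11 and 30. At day 1 and day 3 the median log2 difference over the exporters was 0.32 and 0.15, and over the importers -0.26 and 0.23. In the same steps it was -1.63 and -5.13 over the fitted metallothioneins and -0.03 and 0.07 over all genes.

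Of 8 genes of copper handling, 0 were called at day 1 and 1 at day 3, ATP7A, a copper exporter (1.01 ± 0.18). ATP7B, the copper pump of hepatocytes, rose by 1.51 ± 0.31 at day 5. Between days 30 and 90, 2 of the 8 were called higher, ATP7B (1.39 ± 0.33, edgeR adjusted p = 0.00590) and SLC31A2 (1.07 ± 0.35, adjusted p = 0.0470), where 2.65% of all genes were called higher. Both calls were lost in a fit of the 2 groups alone and without day 90 replicate 2. That of SLC31A2 was also lost with no filter on low counts and without day 30 replicate 3 or 10 or day 90 replicate 4 or 5. The ATP7A call was lost under most alternatives, with log2 differences of 0.46 with limma and 0.96 to 1.00 in the others that lost it. The 10 oxidative stress genes, which are NRF2 targets and NFE2L2, the gene of NRF2 itself, differed by step. At day 1 SLC7A11, the cystine importer, rose from 23.6 to 170 CPM (2.84 ± 0.57, adjusted p = 0.000299) and no other gene of the 10 was called. At day 3, 6 of 10 were called lower, among them SLC7A11 (-4.34 ± 0.61), NQO1 (-2.30 ± 0.52), TXNRD1 (-1.46 ± 0.18) and HMOX1 (-1.39 ± 0.48), and the list's median was -1.15. The HMOX1 call was lost without day 1 replicate 1 or 2, or day 3 replicate 2 or 3. With limma on log2(TPM + 1), the calls named for SLC30A3 and NR3C1 at day 1, SLC39A3 and HMOX1 at day 3 and ATP7B at day 5 and day 90 were lost. Of 10 glucocorticoid response genes, 3 were called lower at day 1, namely SGK1 (-2.53 ± 0.37), KLF9 (-2.37 ± 0.47) and the receptor NR3C1 (-1.55 ± 0.30). At day 3, 5 were called higher, with NR3C1 at 3.01 ± 0.31 and a median over the list of 1.05. Any link between these lists and the metallothionein levels was not tested. Over all 53 genes the calls were 3 higher and 5 lower at day 1 and 10 higher and 9 lower at day 3, which is 15.1% and 35.8% of the genes beside 13.5% and 17.8% of all genes. Of all genes 3.86% were called higher at day 1 and 11.0% at day 3.

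The other 12 metallothionein genes and pseudogenes in the annotation added little. Of these, 5 had 0 counts in every library, and together the 12 took 0.362% of all metallothionein counts. MT1L, a transcribed pseudogene of the cluster, had 147 counts over all libraries, 49 of them in pluripotent wells.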

How the data were processed

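Total RNA of 44 wells was sequenced in 150 base pairs paired-end reads from stranded libraries, per the labels' protocols. The submitters' processing notes name cutadapt, STAR 2.5.2b, RSEM 1.2.31 and the hg38 build, without their roles. The authors deposited expected counts per gene (93.8% of values whole), TPM, and a sample sheet with an RNA integrity score and a lane per library. Gene identifiers were matched to GENCODE 29 for 56769 of 60499. Members and gene lists were chosen with earlier results of these data known.

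Expected counts were rounded and fitted over all 12 groups with edgeR 4.0.16 (filterByExpr at its minimum count of 10, TMM, quasi-likelihood test, R 4.3.3), which tested 22955 genes in 8 comparisons of neighbouring groups. Calls needed a Benjamini-Hochberg adjusted p under 0.05 and a log2 difference of at least 1 in size. The standard error is the log2 difference divided by the root of F. The genes named are all 9 members, MTF1, SLC30A1 and some of the called genes of each list. Those were taken from the 4 largest differences per list and comparison, and other called genes are left unnamed. Also named are genes most like the members over group means of protein-coding genes at 10 TPM or more. Alternatives were RLE scaling, DESeq2 1.42.0, other filters, fits of the compared groups only, limma 3.58.1 on log2(TPM + 1), a replicate block, leaving out each replicate and, added after seeing the data, leaving out the high wells of days 14 and 20. The fit was tested on simulated data. Depth ranged from 6937136 to 33498022 counts, and 3 counts were taken as the least measurable level. Coding sequences were read with Biopython from GENCODE 29 transcripts and promoters from RefSeq. A gene named by these rules and a sequence are not reported here.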

Additional observations from a re-analysis of the deposited data

Results flagged for a closer look

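In 36 sets of 5 wells, 6 had 1 well far from the other 4, by a gap of more than 0.71 of the range. Sets with at most 3 counts in every well were left out, so sets near 0 entered only through their highest well. How many such sets chance would give was not tested. The summed metallothionein level of day 5 replicate 2 was 7.62 CPM, with the other wells at 5.69 to 6.17 CPM. The sum in day 7 replicate 10 was 5.40 CPM, with the others at 2.41 to 2.96 CPM. The remaining 4 rest on 4 to 6 counts in 1 library. They are MT3 in day 5 replicate 3 at 0.171 CPM, MT1A in day 9 replicate 2 at 0.135 CPM, MT1G in day 9 replicate 1 at 0.152 CPM and MT1H in day 11 replicate 1 at 0.286 CPM.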

How the results depend on the processing

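Depth limits the low groups, since from day 3 most members stood at a few counts per library, and a level under 3 counts was not measurable. Counts of calls over the 8 members and over the 53 metal and stress genes stayed within 1.5 times those reported under RLE scaling and both filters on low counts. With both high wells of days 14 and 20 left out, 1 member was called at day 0 in place of 0, and no other count moved that far. In fits of the compared groups only, 4 members were called at day 0, against 9.07% of genes, and 5 at day 1, against 21.3%. Between days 5 and 9 those fits called 1 member, and between days 30 and 90 they called 0, against 0.0117% of genes. For the metal and stress genes those fits gave 2 at day 0, 10 at day 5, 3 between days 11 and 30 and 0 between days 30 and 90. With limma on log2(TPM + 1), 0 members were called at day 5, 1 between days 5 and 9, 1 between days 11 and 30 and 0 between days 30 and 90. The metal and stress genes then gave 0 calls at day 0, 3 at day 1, 9 at day 3, 1 between days 5 and 9, 0 between days 9 and 11 and 2 between days 11 and 30. Causes of these changes were not tested. Where no share of all genes called stands beside a count in this section, nothing is read from that count.

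Leaving out 1 replicate at a time gave 0 to 3 members called at day 5, 1 to 2 between days 5 and 9, 1 to 2 between days 11 and 30, and 0 to 1 between days 30 and 90. Metal and stress genes ranged from 3 to 6 between days 5 and 9, from 0 to 2 between days 9 and 11, and from 3 to 5 between days 30 and 90.

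Same-numbered wells were not treated as pairs. The correlation of their deviations lay between -0.114 and 0.102 in the 5 comparisons with 3 or more pairs. It was wider where fewer pairs existed, at -0.101 and 0.367 for the 2 pairs of days 9 and 11 and -0.300 for the 1 pair of days 11 and 30. With a replicate block, 1 member was called at day 0 and 0 between days 30 and 90, and 2 metal and stress genes between days 9 and 11. All other counts stayed within 1.5 times.

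The log2 ratio of the summed members to pluripotent cells changed in TPM to -0.77 (day 0), -2.73 (day 1), -6.32 (day 5) and -6.19 (day 90), and under RLE scaling to -4.48 (day 90). Leaving out 1 well gave -2.70 to -2.62 at day 1, -7.32 to -7.25 at day 3 and -6.14 to -3.18 at day 14. MTF1 changed sign near 0: between days 1 and 3 it was 0.077 with limma, and between days 3 and 5 it was 0.012 under RLE scaling and DESeq2, 0.0039 with no filter, 0.028 with the stricter filter and 0.032 in the fit of the compared groups only. Its range between days 3 and 5 with 1 well left out was -0.047 to 0.055. SLC30A1 ranged from -1.53 to 0.058 with 1 well left out, the latter without day 30 replicate 3, between days 30 and 90. Of the 5 genes most like the sum, 3 were shared with log2(TPM + 1), and DNAJB6 and RELCH were not.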
